A study of Mus musculus with 12 samples.

Results

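Gadd45a, Gadd45b and Gadd45g, the Gadd45 family, and Cdkn1a, which encodes their binding partner p21, were followed in mouse liver after oral dosing with the peptide IIAEK. The 4 genes were chosen by symbol, from probes designed to their RefSeq transcripts, with their measured IIAEK effects in the 2 genotypes already known, so those effects are given below as a description and without a test. All 4 genes had a probe, out of 22911 named genes on the array, and all 4 were among the 26405 genes and unnamed transcripts that were tested.

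Liver RNA from 12 male mice was hybridised to one-colour Agilent arrays, with 1 array per mouse and 3 mice in each of 4 groups. The groups were Akp3-/- mice given IIAEK, Akp3-/- mice given vehicle, wild-type mice given IIAEK and wild-type mice given vehicle. IIAEK, a pentapeptide that the labels describe as cholesterol-lowering, was given by mouth at 600 mg/kg of body weight per day for 14 days, in carboxymethylcellulose sodium salt at 5 g/L, which alone was the vehicle. The mice were 7 weeks old and livers were taken after 8 h of fasting. Akp3 encodes an intestinal alkaline phosphatase and is called IAP in the labels, where IAP-KO stands for its knockout. The labels do not limit the deletion to a tissue, and they do not give the strain or the number of founder lines. The dosing time is in days in the titles and the series description and in weeks in another label of the IIAEK mice, and days were used.

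Gadd45 proteins are small acidic proteins without known enzyme activity that act by binding others: the kinase MTK1 (Map3k4) upstream of p38 and JNK, the cyclin B1 and CDK1 complex, PCNA and p21. They are named for growth arrest and DNA damage, and different stimuli induce each of them, p53 acting on Gadd45a, NF-kB and TGF-beta signalling on Gadd45b, and cytokines on Gadd45g. In mouse liver, Gadd45b is induced during regeneration and by ligands of the nuclear receptor CAR, and p21 restrains hepatocyte entry into the cell cycle.

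The promoters of Gadd45b and Gadd45g are shown because these 2 genes had the members' IIAEK differences with fully separated arrays. The sequences are the 250 bases before the start site, from RefSeq with build GRCm38.p6, at chr10:80929841-80930090 and chr13:51846425-51846674, both on the plus strand. Capitals mark matches to the motifs searched.
Gadd45b: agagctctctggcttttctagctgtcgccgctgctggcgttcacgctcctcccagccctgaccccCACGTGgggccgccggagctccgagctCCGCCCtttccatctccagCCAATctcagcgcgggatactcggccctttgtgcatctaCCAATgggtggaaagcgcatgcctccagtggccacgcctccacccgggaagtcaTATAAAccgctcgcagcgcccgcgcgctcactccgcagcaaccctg
Gadd45g: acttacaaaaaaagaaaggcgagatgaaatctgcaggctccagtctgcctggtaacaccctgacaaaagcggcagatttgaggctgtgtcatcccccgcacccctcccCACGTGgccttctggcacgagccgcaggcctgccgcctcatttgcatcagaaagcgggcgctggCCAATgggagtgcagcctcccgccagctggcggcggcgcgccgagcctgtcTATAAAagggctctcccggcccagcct
Both windows held TATAAA, at base -46 of Gadd45b and base -27 of Gadd45g, a motif found in 12.4% of 32851 promoter windows of the same length. Both also held the E-box CACGTG, at -185 in Gadd45b and -142 in Gadd45g (6.02% of all windows), and CCAAT, at -139 and -100 in Gadd45b and at -78 in Gadd45g (33.9%). Gadd45b had in addition GGGCGG on the minus strand at -158 (32.7%). Both strands were searched for these 4 motifs and for TGACG (17.8% of windows), TGANTCA (6.75%), GTAAACA (3.17%) and the p53 half-site consensus (7.13%), and none of the last 4 was found in either window. Gadd45a, on chromosome 6, held 1 CCAAT, 1 GGGCGG and 1 p53 half-site. Cdkn1a, on chromosome 17, had 2 start sites in the table, the upstream one with 2 p53 half-sites and the other with 2 GGGCGG. A match is a run of letters and not a measured binding site.

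Levels below are log2 processed signals from which the array's 75th percentile was subtracted, and a difference of 1 on this scale is a doubling. A level is compared only with the same probe on other arrays. The array's 75th percentile lay between 314.6 and 529.4 signal units, 56.8% to 61.9% of probes were well above background, and no spot was saturated. Each gene's main probe (A_51_P315904 for Gadd45g, A_52_P1197913 for Gadd45b, A_51_P296608 for Gadd45a and A_51_P363947 for Cdkn1a) was well above background on 12 of 12 arrays. Neither Akp3 probe was well above background on any array, so liver RNA gave no check of the genotype labels. All 8 hepatocyte markers were above background on every array. Slide 1 carried replicate 1 of each group (4 arrays) and slide 2 the other 8 arrays, and since each slide had its own scan day slide and scan day cannot be told apart. On the first principal component, with 55.4% of the variance, 4 vehicle arrays stood apart, wild-type replicates 2 and 3 and knockout replicates 1 and 3, at 74.1 to 88.1 against -57.3 to -11.3 for the other 8. The summed signal of 8 Kupffer and macrophage markers was 354.1 to 457.1 times the 75th percentile on those 4 arrays and 119.5 to 261.3 times on the others. On the same 4 arrays the 7 stellate and fibroblast markers summed to 216.1 to 297.8, against 99.8 to 161.9 on the others, and the 6 cholangiocyte markers to 28.9 to 62.0, against 8.76 to 11.997. The 7 endothelial markers were lower there, at 56.5 to 66.5 against 73.4 to 82.8. The 8 hepatocyte markers were lower there too, at 2292 to 2796 against 2985 to 4547. In whole liver, fewer cells of a type and less RNA per cell cannot be told apart. The 10 pancreas markers were all above background on wild-type vehicle replicate 1 and wild-type IIAEK replicate 1, and their summed signal was 30.9 on that vehicle array against 9.003 to 17.0 on the other 11.

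Gadd45g, the cytokine-induced member, differed in opposite directions after IIAEK in the 2 genotypes. Its log2 level was 4.33, 4.15 and 3.98 in knockout livers with IIAEK and 5.35, 5.49 and 4.75 in knockout livers with vehicle. In wild-type livers it was 5.49, 5.22 and 5.58 with IIAEK and 3.80, 4.03 and 4.46 with vehicle. In the knockout every IIAEK array lay below every vehicle array, and in the wild type every IIAEK array lay above every vehicle array. The knockout means were 4.15 ± 0.17 with IIAEK and 5.20 ± 0.39 with vehicle (SD, n = 3 each), a log2 difference of -1.04 (SE 0.23), or 2.06-fold lower. The wild-type means were 5.43 ± 0.19 with IIAEK and 4.10 ± 0.34 with vehicle, a log2 difference of 1.34 (SE 0.23), or 2.52-fold higher. The knockout effect minus the wild-type effect was -2.38 (SE 0.33), a description since this contrast chose the gene. By size it ranked 42 among the 26405 tested, so 0.159% were at least as large.

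By slide, where slide 1 has 1 array per group, the IIAEK difference in Gadd45g was -1.02 on slide 1 and -1.05 on slide 2 in the knockout, against 1.69 on slide 1 and 1.16 on slide 2 in the wild type. With those 4 outlying vehicle arrays removed, and a single one of each genotype left, it was -1.34 in the knockout and 1.63 in the wild type. On the arrays left, the macrophage marker sum was 119.5 to 261.3. Without wild-type vehicle replicate 1, the array with the highest pancreas marker sum, the wild-type difference was 1.19. The 9 small intestine markers summed to 132.9 to 165.4 with IIAEK and 108.7 to 162.5 with vehicle in the knockout. In the wild type they summed to 178.8 to 190.1 with IIAEK and 112.6 to 152.9 with vehicle. There the sum separated in the same direction as Gadd45g. The number of these markers above background did not, at 4 to 7 with IIAEK and 7 to 9 with vehicle in the wild type. It was 4 to 6 in both knockout groups. The red cell marker sum of knockout livers, 268.3 to 330.8 with IIAEK and 493.9 to 975.3 with vehicle, separated as Gadd45g did in that genotype. The part of small intestine or red cell RNA in the Gadd45g values was not tested. Between genotypes, Gadd45g was 2.14-fold higher in knockout than in wild-type livers under vehicle, with every knockout array above, and 2.43-fold lower under IIAEK, with every knockout array below. These 2 comparisons use the same 4 groups as the IIAEK differences and are not separate evidence. Of 26405 genes tested, 20 (0.0757%) had all wild-type IIAEK arrays above vehicle and all knockout IIAEK arrays below vehicle, and 8 (0.0303%) had in addition both genotype separations seen for Gadd45g. Gadd45g was among both counts, which its selection fixed.

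**Figure D1:**
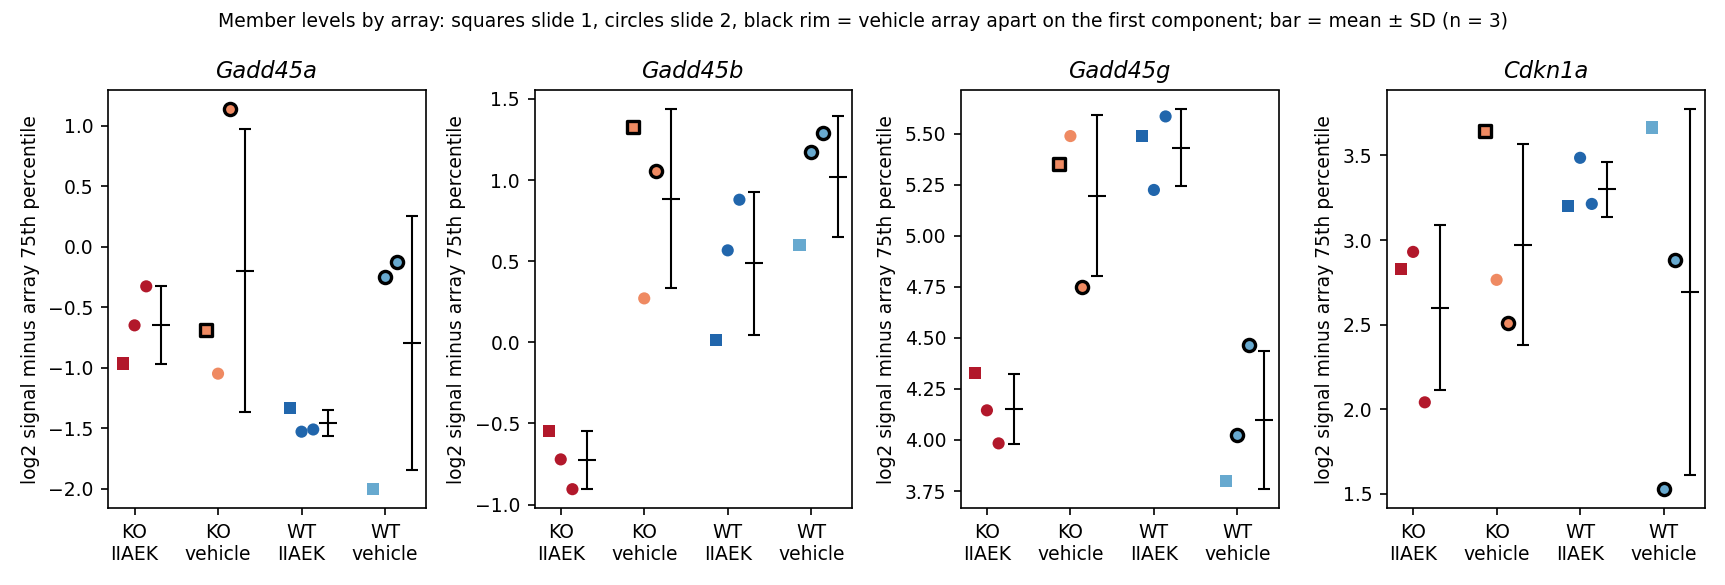
Log2 level of each gene, scaled to the array's 75th percentile, on every array, by group, with group mean ± SD (n = 3); squares are slide 1, circles slide 2, and a black rim marks the 4 vehicle arrays that stood apart. Gadd45g was low on all 3 knockout IIAEK and all 3 wild-type vehicle arrays (3.80 to 4.46) and high on the other 6 (4.75 to 5.58).

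Gadd45b, the NF-kB and TGF-beta responsive member, was low with IIAEK in the knockout. Its log2 level was -0.55, -0.72 and -0.91 in knockout livers with IIAEK and 1.33, 0.27 and 1.06 in knockout livers with vehicle. In wild-type livers it was 0.01, 0.57 and 0.88 with IIAEK and 0.60, 1.17 and 1.29 with vehicle. The 3 knockout IIAEK arrays lay below the other 9 arrays, while the wild-type groups overlapped, with 2 of 3 IIAEK arrays below all vehicle arrays. The knockout means were -0.72 ± 0.18 with IIAEK and 0.89 ± 0.55 with vehicle (SD, n = 3 each), a log2 difference of -1.61 (SE 0.31), or 3.05-fold lower. The wild-type means were 0.49 ± 0.44 with IIAEK and 1.02 ± 0.37 with vehicle, a log2 difference of -0.53 (SE 0.31). The knockout effect minus the wild-type effect was -1.07 (SE 0.43), and 2.17% of tested genes had one at least as large.

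The knockout difference in Gadd45b was -1.87 on slide 1 and -1.48 on slide 2. The knockout vehicle array that did not stand apart, at 0.27, was still above the 3 knockout IIAEK arrays, and without the 4 arrays apart the difference was -0.99 in the knockout and -0.11 in the wild type. Under IIAEK, Gadd45b was 2.31-fold lower in knockout than in wild-type livers with every array below, and under vehicle the genotypes overlapped, with a log2 difference of -0.14. The summed signal of the 6 red cell markers was also lowest in the knockout IIAEK group, at 268.3 to 330.8 times the 75th percentile, against 493.9 to 975.3 in knockout vehicle, 440.5 to 1121.8 in wild-type IIAEK and 330.9 to 953.9 in wild-type vehicle livers. The part of red cell RNA in the Gadd45b difference was not tested.

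Gadd45a, the p53-responsive member, varied more among vehicle livers than among IIAEK livers. Its log2 level was -0.96, -0.65 and -0.33 in knockout livers with IIAEK and -0.68, -1.05 and 1.14 in knockout livers with vehicle. In wild-type livers it was -1.33, -1.53 and -1.51 with IIAEK and -2.004, -0.25 and -0.13 with vehicle. IIAEK and vehicle arrays overlapped in both genotypes, and the vehicle SDs were 1.17 in the knockout and 1.05 in the wild type, against 0.32 in the knockout and 0.11 in the wild type with IIAEK. The IIAEK difference was -0.45 in the knockout and -0.66 in the wild type (SE 0.58 each), and the knockout effect minus the wild-type effect was 0.22 (SE 0.82). In the wild type it was 0.67 on slide 1 and -1.33 on slide 2. Without the 4 arrays apart it was 0.40 in the knockout and 0.55 in the wild type, both opposite in sign to the values from all arrays. Knockout livers with IIAEK lay above wild-type livers with IIAEK on every array, by 0.81.

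Cdkn1a, the cyclin-dependent kinase inhibitor, showed no separation between IIAEK and vehicle. Its log2 level was 2.83, 2.93 and 2.04 in knockout livers with IIAEK and 3.64, 2.77 and 2.51 in knockout livers with vehicle. In wild-type livers it was 3.20, 3.49 and 3.21 with IIAEK and 3.67, 1.53 and 2.88 with vehicle. The 3 wild-type IIAEK arrays lay inside the range of the wild-type vehicle arrays. The IIAEK difference was -0.37 in the knockout and 0.61 in the wild type (SE 0.48 each), and the knockout effect minus the wild-type effect was -0.98 (SE 0.68). In the wild type it was -0.46 on slide 1 and 1.15 on slide 2, and -0.36 without the 4 arrays apart. Under IIAEK the 3 knockout arrays lay below the 3 wild-type arrays, by 0.70. A second Cdkn1a probe, for another transcript, was above background on 6 of 12 arrays: 1 of 3 knockout IIAEK, 3 of 3 knockout vehicle, 0 of 3 wild-type IIAEK and 2 of 3 wild-type vehicle arrays. That probe therefore gives no direction for the IIAEK difference in the wild type.

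Over all genes, separation of the 3 IIAEK from the 3 vehicle arrays was common. Of 26405 genes, 3966 (15.0%) separated in the knockout and 3420 (13.0%) in the wild type, compared with 2 of the 4 genes (Gadd45b and Gadd45g) in the knockout and 1 (Gadd45g) in the wild type. The selection of the 4 genes used these contrasts, so nothing is read from those counts. The separations of the 2 genotypes under IIAEK given above use groups whose IIAEK effects chose the genes. The share of all genes that separated there was not counted, so nothing is read from those separations either. With limma and Benjamini-Hochberg adjustment over all 26405, the IIAEK effect passed 0.05 for no gene in the knockout (0%) and for 1 in the wild type (0.00379%), Tagln, a smooth muscle actin-binding protein, and the difference between genotypes passed for none (0%). The Tagln call held under 8 of 23 alternatives and was lost with slide as a block (limma adjusted p = 0.0758) and with the replicate block (0.283), over a range of 0.00557 to 0.529. At an unadjusted p under 0.05 there were 1661 in the knockout (6.29%), 3339 in the wild type (12.6%) and 413 for the difference (1.56%). The wild-type count changed most without wild-type vehicle replicate 1, when 3939 genes passed, 1820 higher and 2119 lower with IIAEK. The wild-type vehicle arrays then left, replicates 2 and 3, were both among the 4 that stood apart. In those 3939 genes an IIAEK effect cannot be told apart from what sets these arrays apart.

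**Figure D2:**
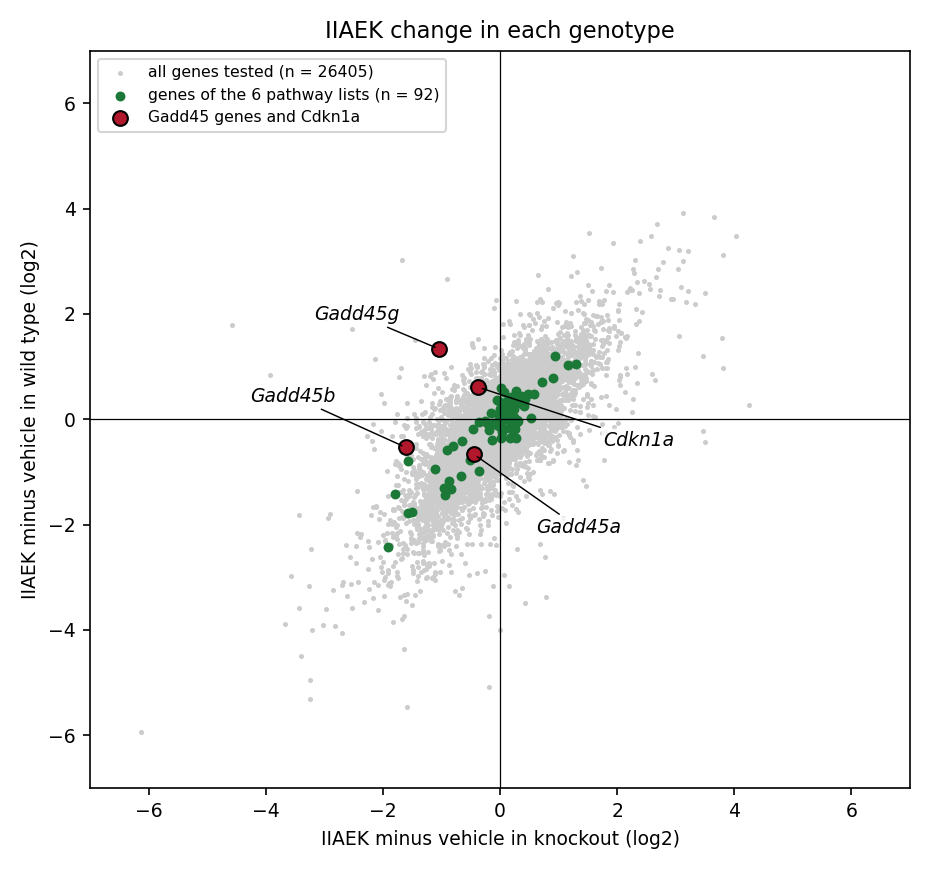
IIAEK minus vehicle log2 difference in knockout (horizontal) and wild-type livers (vertical) for all 26405 genes tested (grey), 92 pathway genes (green) and the 4 genes described (red). Gadd45g, at -1.04 and 1.34, lies in the upper left, and Gadd45b, at -1.61 and -0.53, in the lower left.

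The genotype effect averaged over both treatments did not enter the selection and was tested. None of the 4 genes passed in limma with adjustment over all genes, for which 6 of 26405 (0.0227%) passed and 4226 (16.0%) had an unadjusted p under 0.05. Gadd45b was 0.08 ± 0.95 in knockout and 0.75 ± 0.47 in wild-type livers (SD, n = 6 each), a difference of -0.67 (SE 0.22, limma unadjusted p = 0.0105, adjusted p = 0.244). That difference was 0.09 on slide 1 and -1.05 on slide 2. Gadd45a was -0.42 ± 0.81 in knockout and -1.13 ± 0.76 in wild-type livers (SD, n = 6 each), a difference of 0.70 (SE 0.41, limma adjusted p = 0.397). Gadd45g differed by -0.09 (SE 0.16, limma adjusted p = 0.804), the average of -1.28 under IIAEK and 1.10 under vehicle. Cdkn1a differed by -0.21 (SE 0.34, limma adjusted p = 0.781).

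Likeness among the 4 genes depended on the vehicle arrays apart in some pairs more than in others. Over the 12 arrays Pearson's r was 0.18 for Gadd45a with Gadd45b, -0.21 for Gadd45a with Gadd45g, -0.60 for Gadd45a with Cdkn1a, 0.29 for Gadd45b with Gadd45g, 0.14 for Gadd45b with Cdkn1a and 0.43 for Gadd45g with Cdkn1a. Over the 8 arrays left without those apart, r was -0.88 for Gadd45a with Gadd45b, -0.92 for Gadd45a with Cdkn1a, 0.76 for Gadd45b with Cdkn1a and 0.56 for Gadd45b with Gadd45g. It changed less for Gadd45a with Gadd45g, at -0.26, and for Gadd45g with Cdkn1a, at 0.22. Those 8 were the IIAEK arrays and 1 vehicle array of each genotype. Over the 12 arrays with group means removed, r was 0.42 for Gadd45a with Gadd45b and -0.24 for Gadd45a with Gadd45g. It was then -0.63 for Gadd45a with Cdkn1a and 0.11 for Gadd45b with Gadd45g. For Gadd45b with Cdkn1a it was -0.01, and for Gadd45g with Cdkn1a 0.12. All these r values are a description of arrays that share slides and groups.

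The 3 genes most like each member by the same r were read from the whole array. For Gadd45g they were Cyp3a11, a steroid and drug hydroxylase (r = 0.84), Ddah1, which hydrolyses methylated arginine (0.81), and Alg14, of N-glycan assembly (0.80). Within the groups, with group means removed, the r of Gadd45g with Cyp3a11 was 0.37, and the IIAEK difference of Cyp3a11 was -0.51 in the knockout and 1.04 in the wild type. For Gadd45b they were Fcna, the lectin ficolin A of macrophages (0.94), Acsl3, a fatty acyl-CoA synthetase (0.93), and Tsr1, of ribosome assembly (0.93). For Gadd45a they were Smo, the Hedgehog signal transducer (0.93), 2610206C17Rik (0.93) and Tle3, a corepressor (0.93). For Cdkn1a they were Ube2g2, a ubiquitin-conjugating enzyme (0.92), and 2 transcripts without a gene symbol.

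The family's wider pathway was read from 6 lists of 95 genes, of which 92 were tested. No list gene passed the adjusted test in either genotype, for the difference between genotypes or for the average genotype effect, where the smallest limma adjusted p-values were 0.664 in the knockout, 0.393 in the wild type, 1.0 for the difference and 0.235 for the average genotype effect. At an unadjusted p under 0.05 there were 7 of 92 (7.61%) in the knockout, 13 (14.1%) in the wild type, none for the difference and 18 (19.6%) for the average genotype effect, beside 6.29%, 12.6%, 1.56% and 16.0% of all genes. The median IIAEK difference of the 92 was 0.09 in the knockout and 0.00 in the wild type, beside 0.04 in the knockout and 0.05 in the wild type over all genes. Many of the IIAEK differences named next rest on the 4 vehicle arrays apart. The values of the named genes without those arrays, with 1 vehicle array left per genotype, are given beside them.

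Binding partners and the p38 and JNK cascade (15 tested) had positive IIAEK differences in 13 genes in the knockout and 10 in the wild type, with medians of 0.21 in the knockout and 0.25 in the wild type, where 55.7% of all genes in the knockout and 55.2% in the wild type were positive. Without the 4 arrays apart, 5 were positive in the knockout and 9 in the wild type, beside 47.6% of all genes in the knockout and 47.3% in the wild type. Map2k7, the JNK kinase, differed by 0.11 in the knockout and 0.36 in the wild type, and Mapk8, which is JNK1, by 0.42 in the knockout and 0.38 in the wild type. Without the arrays apart Map2k7 differed by -0.01 in the knockout and 0.11 in the wild type. Mapk8 then differed by -0.11 in the knockout and 0.07 in the wild type. None of the 15 had an unadjusted p under 0.05 for IIAEK, while 6 (40%) had one for the average genotype effect, beside 16.0% of all genes, 5 higher and 1 lower in the knockout. The 4 with the largest such differences, named after their values were seen, serve mitosis: Ccnb1 (1.73), Ccnb2 (1.57), Aurka (1.55) and Cdk1 (1.03), with limma adjusted p between 0.235 and 0.286. The lists were chosen with earlier results of these data known, so nothing is read from the 40%.

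DNA demethylation and repair genes (9 tested) had medians of 0.09 in the knockout and 0.07 in the wild type. Tet1, which oxidises 5-methylcytosine, differed by 1.30 in the knockout (SE 0.60) and 1.05 in the wild type, but by 0.21 in the knockout and -0.45 in the wild type without the arrays apart. Ing1, a chromatin reader bound by Gadd45a, differed by 0.28 in the knockout and 0.38 in the wild type, and by 0.16 in the knockout and -0.0019 in the wild type without them. CDK inhibitors and G1 cyclins (13 tested) had medians of 0.23 in the knockout and -0.07 in the wild type. Cdkn2d, which inhibits CDK4 and CDK6, differed by 0.47 in the knockout and 0.48 in the wild type, and by 0.21 in the knockout and 0.54 in the wild type without the arrays apart. Cdkn2b differed by -0.91 in the knockout and -0.59 in the wild type, and by -0.35 in the knockout and 0.23 in the wild type without them.

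The p53 targets (25 tested) were 12 higher and 13 lower with IIAEK in each genotype, with medians of -0.00 in the knockout and -0.05 in the wild type. Without the arrays apart 19 were higher in each, with medians of 0.06 in the knockout and 0.15 in the wild type. Of all genes, 47.6% were then higher in the knockout (median -0.01) and 47.3% in the wild type (median -0.02). With 1 vehicle array left per genotype, nothing is read from the counts of 19. Ddb2 and Xpc, both of nucleotide excision repair, differed by 0.23 and 0.26 in the knockout and by 0.41 and 0.53 in the wild type, and without the arrays apart by 0.04 and 0.03 in the knockout and by 0.15 and 0.07 in the wild type. Trp53inp1 differed by -1.11 in the knockout and -0.95 in the wild type, and by -0.30 in the knockout and -0.21 in the wild type without them. Btg2, an antiproliferative immediate early gene, differed by -1.58 in the knockout and -1.78 in the wild type, but by -0.03 in the knockout and 0.04 in the wild type without the arrays apart.

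Transcription factors known to act on the 4 genes (23 tested) had medians of 0.06 in the knockout and -0.05 in the wild type. Egr1, an immediate early factor, was -1.42, -0.72 and -1.13 in knockout livers with IIAEK and 1.51, -0.67 and 1.63 with vehicle. In wild-type livers it was -2.20, -1.41 and -1.61 with IIAEK and -0.51, 1.07 and 1.47 with vehicle. The IIAEK arrays lay below the vehicle arrays in both genotypes, and the 4 high values were those of the vehicle arrays apart. Its difference was -1.91 in the knockout and -2.42 in the wild type (SE 0.63 each, limma adjusted p = 0.664 in the knockout and 0.393 in the wild type), and -0.42 in the knockout and -1.23 in the wild type without the arrays apart. Myc differed by -1.80 in the knockout and -1.43 in the wild type, and by -0.56 in the knockout and -0.07 in the wild type without them. Klf4 differed by -0.86 in the knockout and -1.17 in the wild type, and by -0.05 in the knockout and -0.78 in the wild type without them. Among other genes named for growth arrest or DNA damage (7 tested), the mTOR inhibitor Ddit4 differed by -1.51 in the knockout and -1.76 in the wild type, but by 0.32 in the knockout and -1.43 in the wild type without the arrays apart. Ddit3, the stress factor CHOP, differed by -0.66 in the knockout and -0.41 in the wild type, and by -0.04 in the knockout and 0.16 in the wild type without them.

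**Figure D3:**
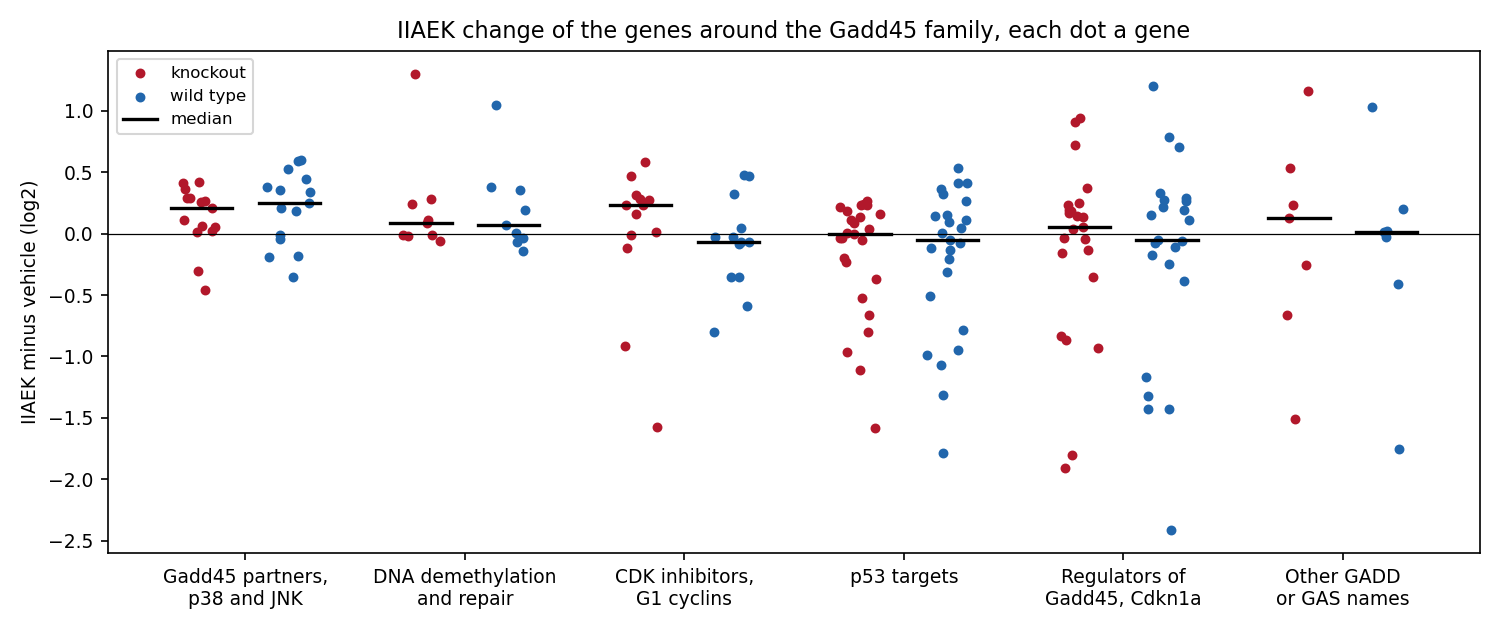
IIAEK minus vehicle log2 difference of each gene in the 6 lists, in knockout and wild-type livers, with the list median as a bar. List medians lay between -0.07 and 0.25, and Egr1, at -2.42 in the wild type, was the lowest value.

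**Figure D4:**
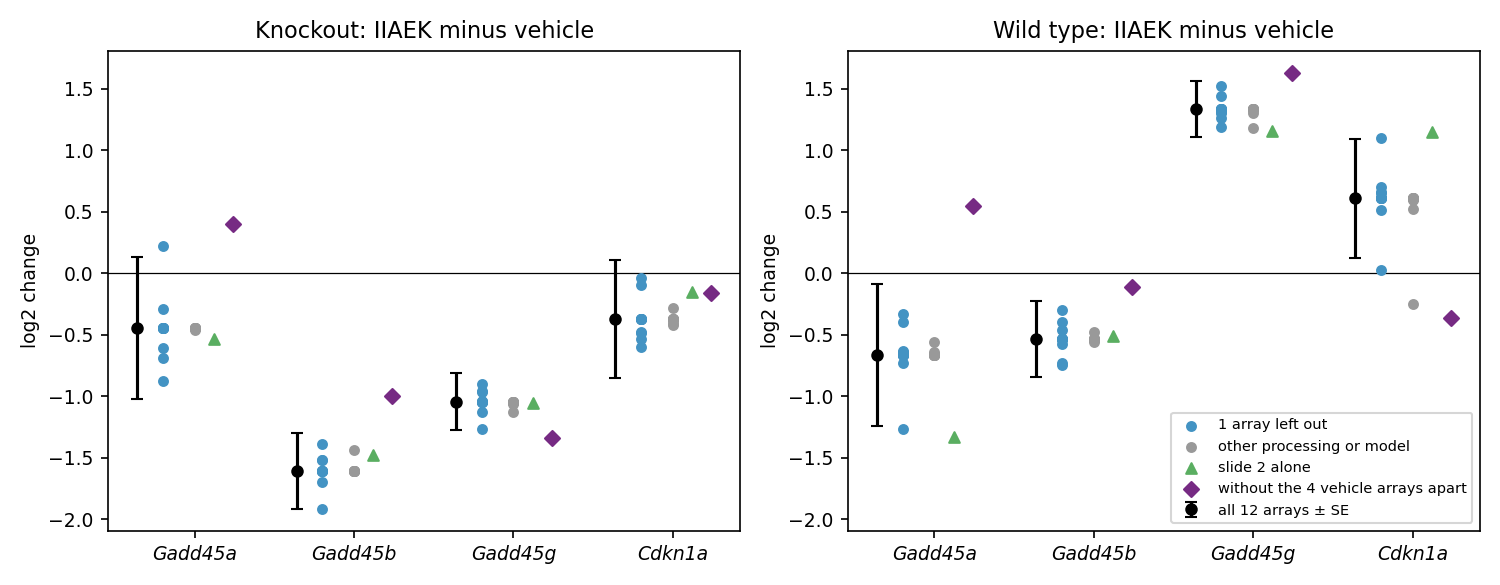
IIAEK minus vehicle log2 difference of the 4 genes from all 12 arrays (black, ± SE), with 1 array left out, under other processing or models, on slide 2 alone, and without the 4 vehicle arrays apart. Gadd45a in both genotypes and Cdkn1a in the wild type took both signs, and several settings, such as blocks and filters, cannot move a difference.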

How the data were processed

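Per the file headers, Agilent Feature Extraction 10.7.3.1 produced the deposited intensity values, background-subtracted and unscaled. The deposited series table of log2 values was used as an alternative: after 75th-percentile scaling and centring on probe medians, the scanner signals gave its columns (r at least 0.99998). Control spots were left out, spots of a probe averaged, and the 75th percentile over 56605 probes subtracted after log2. The brightest probe stood for a gene, and a gene was tested if 1 or more groups had it well above background on every array. limma 3.58.1 in R 4.3.3 fitted 4 group means to 12 arrays with Benjamini-Hochberg adjustment at 0.05. The labels list separate samples, so p-values measure only the spread between them. Members and lists were chosen with earlier results of these data known. Named genes were the 4 members, the 3 genes most like each by r, and per list and comparison up to 4 called genes or otherwise the 2 with the smallest p; those shown are a selection of these. Alternatives were background correction, scaling, filter, probes, slide, replicate number and left-out arrays. Deviations of same-numbered arrays from their group means had r over 0.1 in 8 of 18 pairs, with r from -0.55 to 0.65. With 3 arrays per group and 4 vehicle arrays apart, this cannot decide whether numbers pair mice. Replicate 1 of each group shared slide 1.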

Additional observations from a re-analysis of the deposited data

Results flagged for a closer look

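The IIAEK effect on Gadd45g in the knockout minus that in the wild type was -2.38 on the log2 scale, since every knockout IIAEK array lay below the knockout vehicle arrays and every wild-type IIAEK array above the wild-type vehicle arrays. This difference was not tested, because the gene was chosen with it known.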

How the results depend on the processing

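The IIAEK differences of the 4 genes chose them, and filters, blocks and arrays of the other genotype cannot move them, so their signs over alternatives are no support. Without the 4 vehicle arrays that stood apart (chosen after seeing the data, leaving 1 vehicle array per genotype, assumed to vary like the other groups), the knockout differences were 0.40 for Gadd45a, -0.99 for Gadd45b and -1.34 for Gadd45g, and the wild-type ones 0.55 for Gadd45a, -0.11 for Gadd45b, 1.63 for Gadd45g and -0.36 for Cdkn1a. The difference between genotypes was then -2.97 for Gadd45g and 0.20 for Cdkn1a, with 1 gene called, and the average genotype effect was 0.20 for Gadd45g, with 128 genes called, 4 of them list genes (Cdk1, Ccnb1, Ccnb2 and Ccne1). Averaging the Cdkn1a probes gave -0.25 in the wild type, -0.034 between genotypes and 0.29 for the genotype effect, but 1 of the 2 probes was above background on 6 of 12 arrays and on no wild-type IIAEK array, so these values give no direction. Genes called in the wild type numbered 2 without the filter and 0 with slide as a block, on slide 2 alone, with only the wild-type groups or with the replicate block. Genes called in the knockout numbered 1 without the filter, on slide 2 alone or with only the knockout groups. For the average genotype effect they numbered 0 on slide 2 alone and 2 with the replicate block, which changed no member's call.

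Leaving out 1 array at a time gave, in the knockout, -0.87 to 0.22 for Gadd45a, -1.92 to -1.39 for Gadd45b, -1.27 to -0.90 for Gadd45g, -0.60 to -0.04 for Cdkn1a and 0 to 5 genes called. In the wild type it gave -1.27 to -0.33 for Gadd45a, -0.75 to -0.30 for Gadd45b, 1.19 to 1.52 for Gadd45g and 0.03 to 1.10 for Cdkn1a. There 0 to 3939 of 26405 genes and 0 to 19 of 92 list genes were called, the upper counts without wild-type vehicle replicate 1. The wild-type vehicle arrays then left were both among those that stood apart. Between genotypes, leaving out 1 array gave -0.21 to 0.88 for Gadd45a, -1.38 to -0.85 for Gadd45b and -2.60 to -2.23 for Gadd45g. It gave -1.47 to -0.40 for Cdkn1a and 0 to 1 genes called. For the average genotype effect it gave 0.37 to 0.92 for Gadd45a, -0.79 to -0.52 for Gadd45b, -0.16 to 0.022 for Gadd45g, -0.50 to 0.034 for Cdkn1a and 2 to 9 genes called. The cause of these shifts was not tested. Over all alternatives the limma adjusted p of that effect lay between 0.126 and 0.506 for Gadd45b and between 0.115 and 0.663 for Gadd45a. The number of arrays limits the precision.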

Other observations

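The 8 genes and transcripts with all 4 separations seen for Gadd45g were Gadd45g, Cyp3a11, Cyp3a59, Gprc5d, Zbtb49, Gm14488, Gm15441 and 1 transcript without a symbol, named here after their values were seen. Cyp3a11 and Cyp3a59 encode cytochrome P450 enzymes of one subfamily whose close sequences can share signal between probes. The IIAEK difference of Cyp3a59 was -0.41 in the knockout and 0.89 in the wild type, and that of Gprc5d, an orphan receptor, was -0.84 in the knockout and 1.002 in the wild type. Zbtb49, a zinc finger protein, differed by -0.14 in the knockout and 0.11 in the wild type, so a full separation of 3 arrays from 3 can go with a small difference. Gm15441 was above background on 9 of 12 arrays and no fold is given for it. Nr1i3, which encodes the nuclear receptor CAR, differed by 0.94 in the knockout and 1.20 in the wild type. It passed the adjusted test in the wild type under 1 setting, without wild-type vehicle replicate 1. The wild-type vehicle arrays then left were both among those that stood apart. In that setting 3939 of 26405 genes passed, so nothing is read from the call. Nr1i3 was chosen after its values were seen, and the part of the 4 vehicle arrays apart in its differences was not examined.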
